A study of Mus musculus with 11 samples.

Results

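Cyp2s1, Map2k6, Ddc, Efhd1, Gamt, Reep6 and Stbd1 were examined as 7 genes of 55416 identifiers in the expression table of a mouse liver cancer line. They had been put together because their levels stood out in cells labelled MYC high that were kept in low methionine, so they were chosen by their normalized counts there, and their levels in those libraries are described here and not tested. All 7 were among the 12909 genes with a mean of at least 10 normalized counts. EC4 cells, known as a line grown from a liver tumour of a mouse that carries a tetracycline-regulated human MYC transgene, were used throughout. The 4 groups were MYC high cells (genotype label MYC on) in DMEM with 10 µM methionine, with 3 libraries, MYC high cells with 200 µM, with 2 libraries, MYC low cells (MYC off) with 10 µM, with 3 libraries, and MYC low cells with 200 µM, with 3 libraries. Each medium was given for 24 h, the cells had been grown beforehand in 200 µM methionine, and polyadenylated RNA was sequenced. The labels do not name the agent that lowered MYC, all groups are of 1 line, and replicate 1 of the MYC high group given 200 µM was not analysed here.

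Methionine is the source of S-adenosylmethionine, the methyl donor of most cellular methylation reactions. Creatine synthesis is one of the large consumers of that donor in mammals, and the enzyme that carries out its methylation step is encoded by Gamt. The other 6 genes belong to separate routes: amine synthesis (Ddc), oxidation of small molecules (Cyp2s1), the p38 kinase cascade (Map2k6), mitochondrial calcium (Efhd1), and the endoplasmic reticulum and its contact with glycogen (Reep6 and Stbd1).

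Reads on genes numbered 10858936 to 13085689 per library, spread over 17395 to 18462 genes. Mitochondrial genes took 0.793% to 0.914% of reads in MYC high libraries and 1.52% to 1.74% in MYC low libraries, so this share moved with each comparison of MYC state. The labels do not say that replicates were separate cultures, so the spread behind each p-value is that of these libraries and may be technical. In bulk RNA, fewer cells with a transcript and less of it per cell cannot be told apart. The mouse Myc transcript, which reports a human transgene only in part, averaged 2089 ± 106 normalized counts in MYC high cells (SD, n = 2) and 1136 ± 31.3 in MYC low cells (SD, n = 3) at 200 µM. With 10 µM methionine MYC high cells averaged 336 ± 39.2 and MYC low cells 336 ± 13.5 (SD, n = 3 each), so at 10 µM the MYC state rests on the labels. Of 14 hepatocyte markers, 3 passed the filter on low values (Krt8, Krt18 and Afp) and 6 were at 0 in every library, among them Alb and Cps1. The hepatocyte markers summed to 12300 to 12780 normalized counts in MYC high cells given 10 µM, 8579 to 8983 in MYC high cells given 200 µM, 20850 to 21440 in MYC low cells given 10 µM and 10680 to 10890 in MYC low cells given 200 µM. At 10 µM against 200 µM, Krt8 and Afp rose by 1.21 and 1.19 on the log2 scale in MYC high cells and by 1.36 and 0.55 in MYC low cells, while Krt18 fell by 0.32 in MYC high cells and rose by 0.42 in MYC low cells (limma, adjusted p of at most 7.45e-05). The markers of fibroblasts and endothelium summed to at most 27.3 and 4.57 normalized counts in any library. Macrophage markers summed to 1061 to 1133 in MYC high cells given 10 µM, 644 to 674 in MYC high cells given 200 µM, 1302 to 1413 in MYC low cells given 10 µM and 919 to 963 in MYC low cells given 200 µM, with 3 of 7 past the filter (Cd68, Cd14 and Csf1r) and the leukocyte gene Ptprc and C1qa at 0. In MYC high cells at 10 µM against 200 µM, Cd68 rose by 3.97 and Csf1r by 0.82 on the log2 scale, while Cd14 fell by 0.91. In MYC low cells 2 of the 3 rose and 1 did not pass limma's test. The part of these shares and markers in the results below was not tested.

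Sequence upstream of the start site was compared because 5 of the genes moved together. RefSeq (GRCm38.p6) gave 9 windows of 250 bases before the start for 6 of the 7 genes, and Reep6 had no entry. The windows printed are those of the gene with a HIF core, of the gene that stood out most in MYC high cells given 10 µM (Efhd1), and of one gene from each of the patterns described below (Gamt and Stbd1). Capitals mark the letters ACGTG, the core of hypoxia-inducible factor sites, and GCGTG, the core of aryl hydrocarbon receptor sites, on either strand. The Map2k6 window lies at chr11:110398852-110399101 (plus strand), Efhd1 at chr1:87264103-87264352 (plus), Gamt at chr10:80261013-80261262 (minus) and Stbd1 at chr5:92602801-92603050 (plus).
Map2k6: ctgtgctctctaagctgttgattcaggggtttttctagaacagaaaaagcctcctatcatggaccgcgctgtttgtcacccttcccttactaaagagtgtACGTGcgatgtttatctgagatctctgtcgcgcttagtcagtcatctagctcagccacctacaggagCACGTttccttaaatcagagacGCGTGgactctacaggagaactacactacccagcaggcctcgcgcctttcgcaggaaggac
Efhd1: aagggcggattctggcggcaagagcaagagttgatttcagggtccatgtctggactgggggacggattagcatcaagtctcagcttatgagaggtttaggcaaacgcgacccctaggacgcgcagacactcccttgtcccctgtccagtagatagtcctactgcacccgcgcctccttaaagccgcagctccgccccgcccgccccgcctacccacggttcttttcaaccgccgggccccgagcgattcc
Gamt: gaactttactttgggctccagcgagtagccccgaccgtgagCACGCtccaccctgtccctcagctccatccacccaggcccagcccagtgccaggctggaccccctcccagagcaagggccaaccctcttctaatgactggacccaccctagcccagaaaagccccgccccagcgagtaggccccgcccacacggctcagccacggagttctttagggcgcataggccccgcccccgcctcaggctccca
Stbd1: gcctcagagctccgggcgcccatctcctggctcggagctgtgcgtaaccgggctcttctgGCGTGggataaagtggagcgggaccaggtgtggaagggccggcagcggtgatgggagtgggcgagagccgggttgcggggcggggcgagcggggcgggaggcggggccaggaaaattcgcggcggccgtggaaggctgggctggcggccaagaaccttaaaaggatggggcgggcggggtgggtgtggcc
ACGTG was present in 1 of the 9 windows, the Map2k6 window printed above, against 16.6% of all 32851 RefSeq windows of that length. The other windows of Map2k6 lacked it. GCGTG was present in 5 windows of 4 genes (Map2k6, Ddc, Gamt and Stbd1), against 28.2% of all windows. The E-box CACGTG, which contains ACGTG and is bound by MYC and others, was in no window (6.02% of all), and neither was TGATGNAA, the letters of ATF4 composite elements (3.45% of all). The Stbd1 window was 71.2% and the Gamt window 66.8% G and C, against a median of 52.4% over all windows. The motifs were chosen with results of these data known, both strands were searched, and a match describes letters only.

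The 7 genes fell into 2 patterns. Cyp2s1, Map2k6, Ddc, Gamt and Efhd1 had their highest levels in MYC high cells given 10 µM, next MYC low cells given 10 µM, then MYC low cells given 200 µM, and their lowest in MYC high cells given 200 µM. Reep6 and Stbd1 were high in MYC high cells at both methionine concentrations and lowest in MYC low cells given 10 µM. For Reep6 and Stbd1 the description of genes induced by low methionine in MYC high cells does not hold. Across the 11 libraries the log2 profiles of the first 5 genes had pairwise Pearson correlations of 0.795 (Map2k6 and Efhd1) to 0.990 (Cyp2s1 and Map2k6), Reep6 and Stbd1 had one of 0.995, and pairs across the patterns had -0.21 to 0.33. These are descriptions, since the libraries of a group share cells, medium and handling.

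**Figure D1:**
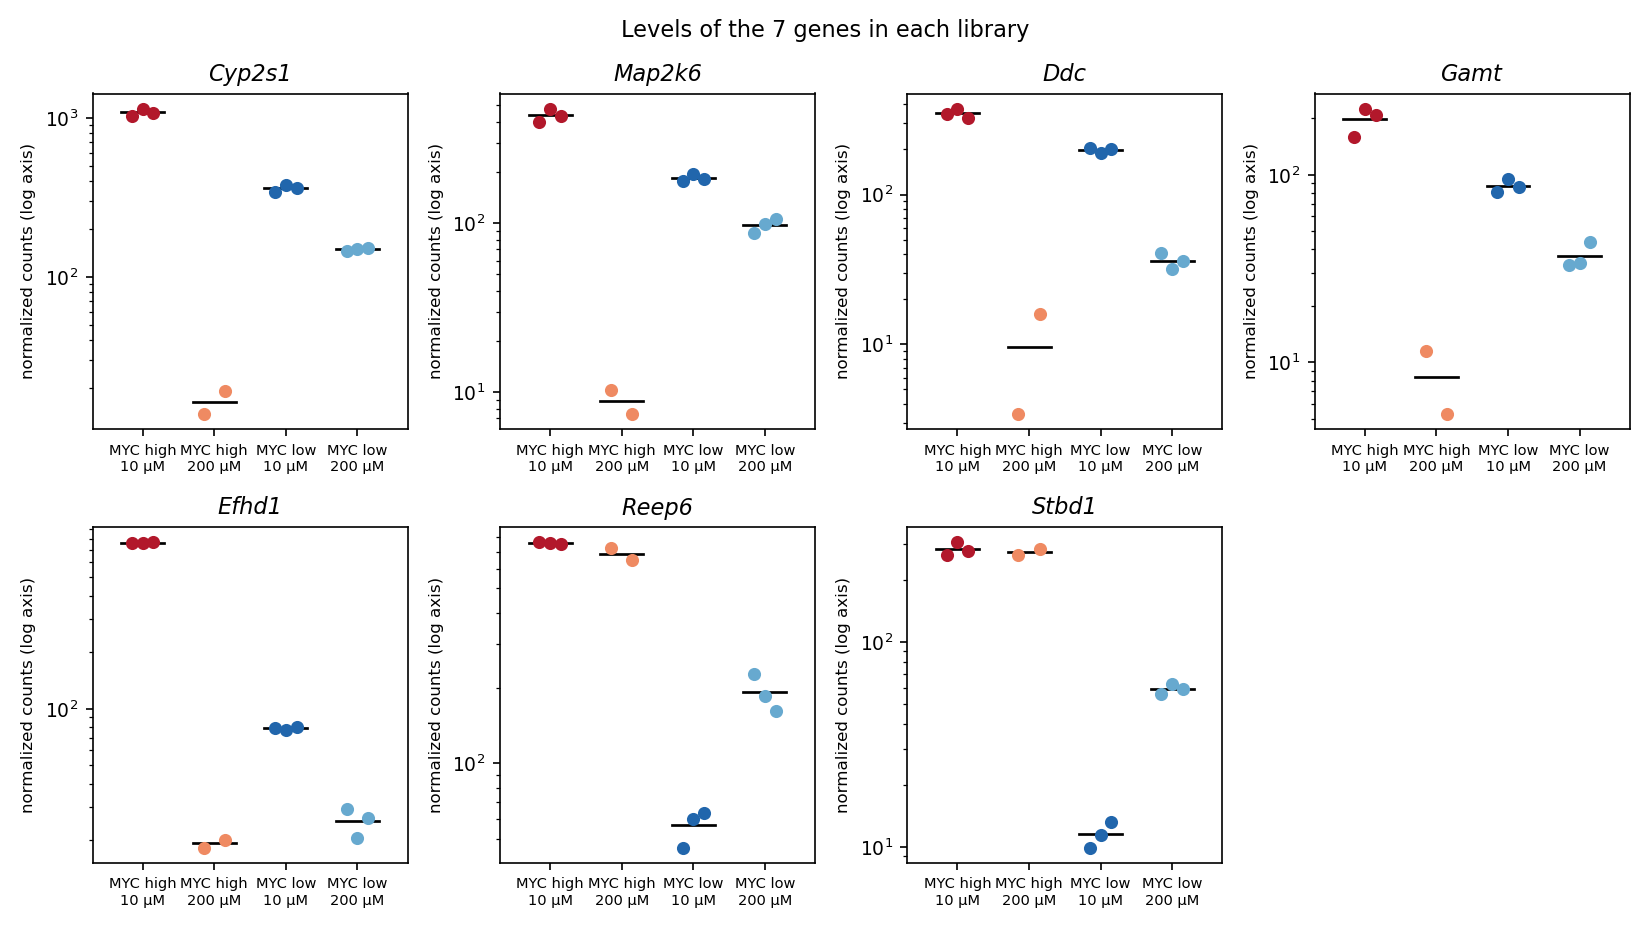
Normalized counts on a log axis for each of the 7 genes in each library (points), with the group mean (line), in MYC high cells at 10 and 200 µM methionine and MYC low cells at 10 and 200 µM. The panels of 5 genes share 1 order of groups, while Reep6 and Stbd1 stay high in MYC high cells in both media and are lowest in MYC low cells given 10 µM.

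Counted over the set, 5 genes rose and 2 fell at 10 µM in MYC low cells, a comparison without MYC high libraries. Over all genes, 29.4% rose and 29.9% fell there, so most genes tested changed (59.4%) and a passed test alone does not set the 7 apart. The libraries of each medium did not overlap for any of the 7 in MYC low cells, which was true of 32.8% of all genes in the upward and 32.7% in the downward direction. Each of these 7 calls was kept in every alternative tried, with adjusted p of at most 0.00198 (limma, edgeR or DESeq2). At 200 µM, 2 genes (Reep6 and Stbd1) were higher and 5 lower in MYC high than in MYC low cells, against 36.8% and 37.6% of all genes (74.4% either way), and the call of Efhd1 among the 5 was lost under several settings given below. Shares without overlap were 40.7% upward and 40.8% downward there, and the same for 10 minus 200 µM in MYC high cells. The same MYC low libraries at 200 µM enter both comparisons, so their opposite signs are not separate evidence. The MYC high libraries at 200 µM were also among those above which the genes stood out, so low levels there may have entered the choice. The adjusted p-values of the 7 genes for MYC state at 200 µM are therefore not independent of the choice and are no support for it. For 10 minus 200 µM in MYC high cells, 75.8% of all genes passed, and for MYC high minus MYC low at 10 µM 71.5% (37.1% upward and 36.5% downward without overlap), and the genes' own values there are given as descriptions only.

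The interaction is the log2 difference of 10 minus 200 µM in MYC high cells less that in MYC low cells, and 60.4% of all genes passed its test. It was 2.90 (Ddc) to 4.71 (Cyp2s1) for the first 5 genes, and 1.89 for Reep6 and 2.31 for Stbd1, described only. The Ddc value was 1.93 without replicate 2 and 3.87 without replicate 3 of MYC high cells given 200 µM. For Reep6 and Stbd1 it came with a difference near 0 in MYC high cells and a fall in MYC low cells, and for the others with a rise in both states that was larger in MYC high cells.

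**Figure D2:**
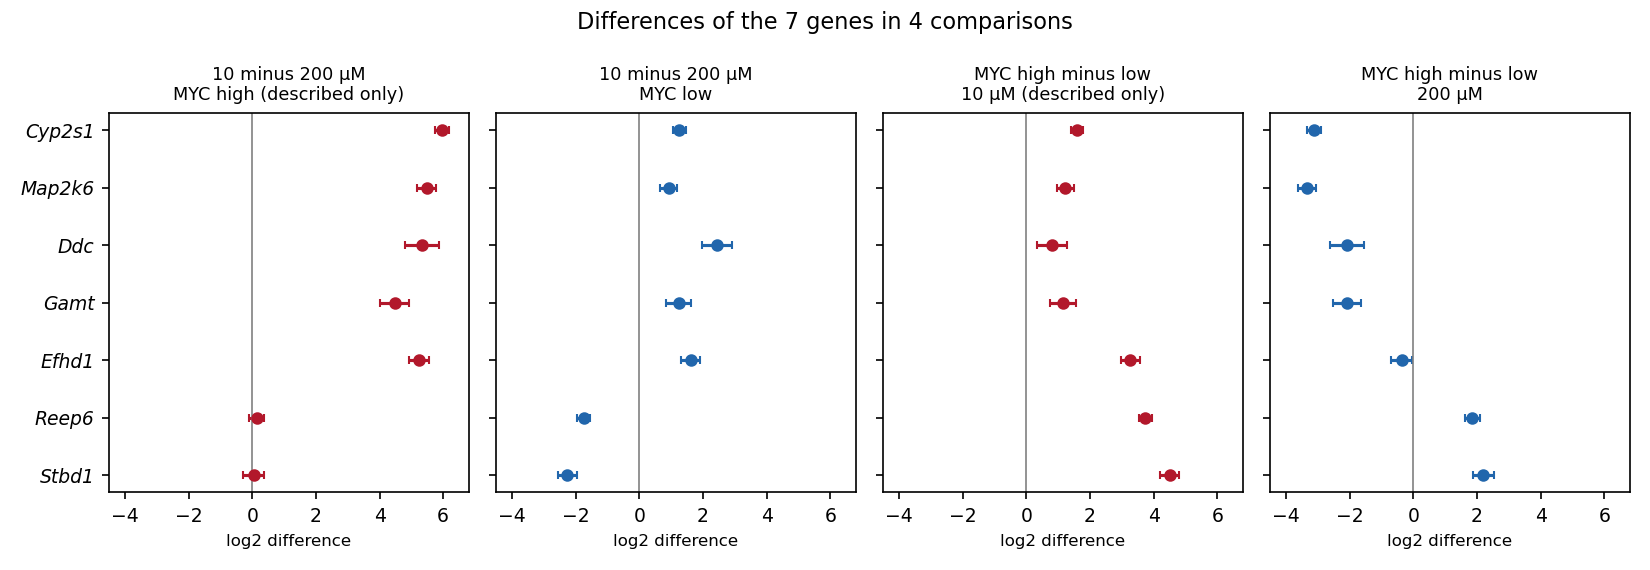
Log2 differences with 95% intervals (points and bars) of the 7 genes in 4 comparisons: 10 minus 200 µM methionine within each MYC state, and MYC high minus MYC low cells at 10 and at 200 µM. Red marks the comparisons that involve the MYC high libraries at 10 µM, in which the genes were chosen to stand out. Levels of MYC high cells at 200 µM may also have entered the choice. In MYC low cells 5 genes lie above 0 and Reep6 and Stbd1 below it, and at 200 µM the signs are the other way round.

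Gamt (ENSMUSG00000020150), the guanidinoacetate methyltransferase that completes creatine with a methyl group from S-adenosylmethionine, had 159, 225 and 209 normalized counts in MYC high cells given 10 µM and 11.4 and 5.30 in MYC high cells given 200 µM. It had 81.4, 94.9 and 86.4 in MYC low cells given 10 µM and 33.15, 33.8 and 43.6 in MYC low cells given 200 µM. No pair of groups overlapped, and the lowest group rested on 15 reads in its 2 libraries. The difference of 10 minus 200 µM was 4.47 on the log2 scale (SE 0.22) in MYC high cells, described only. In MYC low cells it was 1.24 (SE 0.20), which is 2.35-fold higher at 10 µM (limma, Benjamini-Hochberg adjusted p = 1.54e-06). At 200 µM, Gamt was lower in MYC high than in MYC low cells (log2 -2.08, SE 0.22, limma adjusted p = 1.36e-10), a comparison not independent of the choice.

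Of 7 other genes of creatine synthesis, transport and use, 3 had enough signal to be tested. The mitochondrial enzyme ahead of Gamt, Gatm, stood at 16.9 ± 5.16 normalized counts in MYC high cells given 10 µM (SD, n = 3) and 10.98 ± 0.981 at 200 µM (SD, n = 2), with limma adjusted p = 0.304. Slc6a8, the creatine importer, averaged 1707 ± 54.8 at 10 µM and 1770 ± 41.4 at 200 µM in MYC high cells (limma adjusted p = 0.237). The carrier Slc16a12, named after its values were seen, differed by 1.13 (limma adjusted p = 0.0716) in MYC high cells and by 4.02 (limma adjusted p = 1.34e-08) in MYC low cells. In MYC high cells it was near the floor, with 2.04, 4.05 and 1.01 normalized counts at 10 µM and 0 and 1.06 at 200 µM. Its difference there was 0.27 to 2.11 under the other settings. In MYC low cells it had 52.4, 56.9 and 55.6 at 10 µM and 1.95, 1.02 and 5.81 at 200 µM. Slc6a8 fell in MYC low cells, to 2020 ± 47.6 at 10 µM, against 2946 ± 58.2 at 200 µM (SD, n = 3 each, log2 -0.54, limma adjusted p = 1.22e-15). Ckb, the brain-type creatine kinase, averaged at most 0.338 normalized counts in any group.

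Ddc (ENSMUSG00000020182), the decarboxylase that makes dopamine and serotonin from their amino acid precursors, had 346, 374 and 325 normalized counts in MYC high cells given 10 µM and 3.43 and 15.9 in MYC high cells given 200 µM. It had 205, 189 and 202 in MYC low cells given 10 µM and 41.0, 31.7 and 35.8 in MYC low cells given 200 µM. The groups did not overlap, and the MYC high libraries at 200 µM, with 3 and 15 reads, lay far apart from each other for 1 group. In MYC high cells the log2 difference of 10 minus 200 µM was 5.33 (SE 0.26), and 4.37 without replicate 2 or 6.30 without replicate 3 of MYC high cells given 200 µM. In MYC low cells Ddc was 5.397-fold higher at 10 µM (log2 2.43, SE 0.23, limma adjusted p = 2.16e-11), which among the 7 genes was the largest positive methionine difference in MYC low cells. At 200 µM it was lower in MYC high than in MYC low cells by log2 -2.10 (SE 0.26, limma adjusted p = 5.07e-09), and by -1.13 without replicate 2 or -3.06 without replicate 3 of MYC high cells given 200 µM. This comparison of MYC states is not independent of the choice.

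The enzymes that supply or clear what Ddc works on were mixed. Of 11 other tested genes of aromatic amine metabolism, 6 rose and 3 fell at 10 µM in MYC high cells (37.9% of all genes rose there and 37.9% fell), with a median log2 difference of 0.32, against -0.00391 for all genes. Pcbd1 and Pts of tetrahydrobiopterin metabolism rose by 1.27 (SE 0.051) and 0.97 (SE 0.17) on the log2 scale, as did the aldehyde dehydrogenase Aldh2 (0.71, SE 0.047). Slc18a1, a vesicular amine carrier, fell by 2.51 (SE 0.31) and the amine oxidase Maoa by 0.43, and each of these calls is limma's. Gch1, the entry enzyme of tetrahydrobiopterin synthesis, averaged 57.5 ± 1.98 at 10 µM (SD, n = 3) and 62.3 ± 5.60 at 200 µM (SD, n = 2) in MYC high cells. Th and Tph1, which make the precursors that Ddc decarboxylates in neurons and neuroendocrine cells, had group means of at most 1.198 and 0 normalized counts. Of 8 neuroendocrine markers, 1 was tested (Insm1), 4 were at 0 in all libraries, and their sum was 39.5 to 44.6 in MYC high cells given 10 µM, 44.6 to 46.7 in MYC high cells given 200 µM, 41.6 to 50.3 in MYC low cells given 10 µM and 21.5 to 27.3 in MYC low cells given 200 µM. Their part in the Ddc levels was not tested.

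Cyp2s1 (ENSMUSG00000040703), a microsomal cytochrome P450 that is known for induction through the aryl hydrocarbon receptor and for expression mostly outside the liver, had 1025, 1139 and 1077 normalized counts in MYC high cells given 10 µM and 13.7 and 19.1 in MYC high cells given 200 µM. It had 339.9, 378 and 359.8 in MYC low cells given 10 µM and 146, 149 and 152 in MYC low cells given 200 µM. The groups were far apart compared with their spread. The log2 difference of 10 minus 200 µM in MYC high cells was 5.97 (SE 0.11), the largest of the 7 genes, described only. Within MYC low cells Cyp2s1 was 2.40-fold higher at 10 µM (log2 1.26, SE 0.097, limma adjusted p = 5.56e-14). At 200 µM it was 8.73-fold lower in MYC high than in MYC low cells (log2 -3.13, SE 0.11, limma adjusted p = 8.47e-25), a comparison not independent of the choice.

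The other tested genes of that route had log2 differences of at most 2.43 in MYC high cells. Of 9 tested genes of P450 families 1 and 2 and the aryl hydrocarbon receptor route, 5 rose and 2 fell at 10 µM in MYC high cells, where 37.9% of all genes rose and 37.9% fell. Among the risen genes were Ephx1, an epoxide hydrolase (2.43, SE 0.045), Cyp2u1 (2.08, SE 0.45, a cytochrome P450), Por, the electron donor of microsomal P450 enzymes (0.76, SE 0.046), and Cyp2j6 (0.81). Cyp2u1 averaged 8.12 ± 2.72 normalized counts at 10 µM (SD, n = 3) and 1.10 ± 0.0577 at 200 µM (SD, n = 2) in MYC high cells, and at these low levels its difference was 0.81 with a pseudocount of 8 and 2.88 with DESeq2. The Cyp2j6 call was lost with edgeR (adjusted p = 0.139) and DESeq2 (adjusted p = 0.207), and with limma without replicate 2 of MYC high cells given 200 µM (adjusted p = 0.138) or replicate 3 of MYC high cells given 10 µM (adjusted p = 0.0729). The receptor gene Ahr itself fell in MYC high cells by 0.79 (SE 0.12) and rose in MYC low cells by 0.43 (SE 0.10), and its target Tiparp fell in MYC high cells by 0.79 (SE 0.065) and in MYC low cells to 433 ± 28.7, against 1226 ± 72.9 (SD, n = 3 each). Cyp1a1 and Cyp1b1, classical targets of the receptor, averaged at most 0.571 and 0.341 normalized counts in any group.

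Map2k6 (ENSMUSG00000020623), the kinase MKK6 that phosphorylates and activates p38, had 399, 477 and 433 normalized counts in MYC high cells given 10 µM and 10.3 and 7.43 in MYC high cells given 200 µM. It had 178, 195 and 183 in MYC low cells given 10 µM and 87.8, 99.3 and 106 in MYC low cells given 200 µM. All 4 groups were separate, and the lowest held 16 reads. The log2 difference of 10 minus 200 µM in MYC high cells was 5.48 (SE 0.14), described only. Among MYC low libraries it was 0.92 (SE 0.13, limma adjusted p = 9.44e-08), a 1.89-fold higher level at 10 µM. Its level at 200 µM was 10.1-fold lower in MYC high than in MYC low cells (log2 -3.34, SE 0.14, limma adjusted p = 7.36e-22), a comparison not independent of the choice.

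The rest of the p38 cascade had changes in both directions. Of 25 other tested genes, 10 rose and 11 fell at 10 µM in MYC high cells, with a median log2 difference of -0.03. Among all genes, 37.9% rose there and 37.9% fell. Map2k3, which encodes the other main activator of p38, rose by 0.32 (SE 0.051), and Mapk11, a p38 kinase, rose by 1.98 (SE 0.12). Mapk14, the most widely used p38 kinase, averaged 861 ± 21.3 normalized counts at 10 µM (SD, n = 3) and 877 ± 0.826 at 200 µM (SD, n = 2) in MYC high cells (limma adjusted p = 0.668). Downstream, Mknk2 rose by 1.64 (SE 0.046) and Rps6ka5 fell by 2.26 (SE 0.18), and Dusp10, a phosphatase of p38, fell by 1.73 (SE 0.11). Mapk13 was at 0 in the mean of every group, a count of 0 that leaves room for 2.65 to 3.43 normalized counts depending on the library.

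Efhd1 (ENSMUSG00000026255), a calcium-binding EF-hand protein of mitochondria, had 765, 761 and 768.5 normalized counts in MYC high cells given 10 µM and 18.3 and 20.2 in MYC high cells given 200 µM. It had 78.6, 76.8 and 80.2 in MYC low cells given 10 µM and 29.25, 20.5 and 26.1 in MYC low cells given 200 µM. MYC high cells given 10 µM stood far above all others, and at 200 µM the highest MYC high library lay just under the lowest MYC low library. The log2 difference of MYC high minus MYC low at 10 µM was 3.27 (SE 0.14), and that of 10 minus 200 µM in MYC high cells 5.24 (SE 0.16), both described only. Its level in MYC low cells was 3.06-fold higher at 10 µM (log2 1.61, SE 0.14, limma adjusted p = 2.86e-12). At 200 µM it was lower in MYC high than in MYC low cells by log2 -0.37 (SE 0.16, limma adjusted p = 0.0391), a call that was lost with edgeR (adjusted p = 0.191) and DESeq2 (adjusted p = 0.250). With limma the call was also lost without replicate 2 of MYC high cells given 200 µM (adjusted p = 0.157), without replicate 1 or 3 of MYC low cells given 200 µM (adjusted p = 0.161 and 0.0759), and without any 1 of the MYC high libraries given 10 µM. It was lost too when genes with a mean of at least 1 were tested (adjusted p = 0.0514), with a pseudocount of 8 (adjusted p = 0.0674) and with a replicate block (adjusted p = 0.0728).

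An antisense transcript, Efhd1os, overlaps Efhd1 on the opposite strand and moved with it. It averaged 217 ± 2.45 normalized counts in MYC high cells given 10 µM (SD, n = 3), 3.35 ± 1.73 in MYC high cells given 200 µM (SD, n = 2), 29.2 ± 4.71 in MYC low cells given 10 µM and 12.5 ± 1.91 in MYC low cells given 200 µM (SD, n = 3 each). No source used here gives the strand setting of the counting, and reads of Efhd1 and Efhd1os cannot be told apart. Of 19 other tested genes of mitochondrial calcium handling and EF-hand proteins, 8 rose and 7 fell at 10 µM in MYC high cells (median log2 0.14). Among all genes, 37.9% rose there and 37.9% fell. The paralog Efhd2 rose by 1.06 (SE 0.063), and the calcium-regulated carriers Slc25a23 and Slc25a12 rose by 3.12 (SE 0.17) and 1.07 (SE 0.052). Slc25a25, a carrier of the same family as Slc25a23, fell by 1.09 (SE 0.090).

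Reep6 (ENSMUSG00000035504), a membrane protein that shapes the endoplasmic reticulum and is known for its role in rod photoreceptors, had 765, 758.5 and 751 normalized counts in MYC high cells given 10 µM and 724 and 648 in MYC high cells given 200 µM. It had 46.1, 59.8 and 63.5 in MYC low cells given 10 µM and 227, 186 and 163 in MYC low cells given 200 µM. Levels in MYC high cells lay close together in both media, with a log2 difference of 0.15 (95% interval -0.09 to 0.38), and every MYC low library was below them. In MYC low cells Reep6 fell at 10 µM by 1.75 on the log2 scale (SE 0.10, limma adjusted p = 3.35e-17), a 3.36-fold lower level. At 200 µM it was 3.59 times the MYC low level in MYC high cells (log2 1.84, SE 0.12, limma adjusted p = 6.04e-17). The log2 difference between the MYC states at 10 µM was 3.74 (SE 0.10), described only.

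The relatives of Reep6 changed in both directions. Of 15 other tested genes of the REEP family and of endoplasmic reticulum shape, 6 rose and 8 fell at 10 µM in MYC high cells. In MYC low cells 7 rose and 6 fell. Among all genes, 37.9% rose and 37.9% fell in MYC high cells, and 29.4% rose and 29.9% fell in MYC low cells. Reep3 and Reep5 fell in MYC low cells by 0.38 (SE 0.049) and 0.27 (SE 0.037), and Reep4 stood at 329 ± 2.93 normalized counts at 10 µM and 359 ± 16.8 at 200 µM in MYC low cells (SD, n = 3 each, limma adjusted p = 0.105). In MYC high cells Reep3 and Reep5 fell by 0.88 (SE 0.055) and 0.80 (SE 0.042), while Reep4 rose by 0.87 (SE 0.074), Rtn2 by 1.35 (SE 0.17) and Arl6ip1 by 1.08 (SE 0.038). Reep1 and Reep2 averaged at most 2.28 and 0.675 normalized counts in any group.

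Stbd1 (ENSMUSG00000047963), which binds glycogen through its starch-binding domain and anchors it to membranes, had 265, 307 and 279 normalized counts in MYC high cells given 10 µM and 265 and 285 in MYC high cells given 200 µM. It had 9.94, 11.4 and 13.2 in MYC low cells given 10 µM and 55.6, 62.4 and 59.0 in MYC low cells given 200 µM. The MYC high libraries of both media overlapped (log2 difference 0.04, 95% interval -0.29 to 0.37), and the MYC low libraries of both media lay far below and apart from each other. At 10 µM Stbd1 fell in MYC low cells by 2.27 on the log2 scale (SE 0.15, limma adjusted p = 4.15e-16), a 4.82-fold lower level that rested on 38 reads at 10 µM. At 200 µM it was 4.605 times the MYC low level in MYC high cells (log2 2.20, SE 0.16, limma adjusted p = 8.30e-15). The difference at 10 µM was 4.51 (SE 0.15), described only.

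Genes of glycogen synthesis and breakdown also changed in both directions, with the synthesis genes named here higher at 10 µM. Of 21 other tested genes, 13 rose and 6 fell in MYC high cells (median log2 0.47), and 11 rose and 6 fell in MYC low cells (median 0.27). Over all genes, 37.9% rose and 37.9% fell in MYC high cells, and 29.4% rose and 29.9% fell in MYC low cells. The branching enzyme Gbe1 rose by 2.69 in MYC high cells (SE 0.050) and by 0.41 in MYC low cells (SE 0.044), and phosphoglucomutase Pgm1 by 2.32 (SE 0.047) and 0.43 (SE 0.042). Glycogen synthase Gys1 rose by 1.88 (SE 0.047) and 0.27 (SE 0.042). The liver phosphorylase Pygl averaged at most 0.650 normalized counts in any group, and Ppp1r3c, a subunit that targets a phosphatase to glycogen, was at 0.

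How far the genes stood out can be given as the ratio of the lowest MYC high library at 10 µM to the highest of the other 8 libraries. Efhd1 had a ratio of 9.48 and ranked 11 of 12909 genes, Cyp2s1 one of 2.71 (rank 81), and Map2k6 one of 2.04 (rank 154). Gamt followed with 1.68 (rank 280), Ddc with 1.58 (rank 337) and Reep6 with 1.04 (rank 1836). Stbd1, at 0.928 (rank 2754), was not above all other libraries. Without replicate 1 of MYC high cells given 10 µM the Gamt ratio was 2.20. A ratio above 1 was found for 16.5% of all genes and one of at least 2 for 1.29%. Outside the set, the largest ratios at a mean of at least 100 belonged to Selenbp1 (112), Ankrd37 (16.1), Gm45507 (14.1), Bnip3 (14.1) and Fam162a (8.30).

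**Figure D3:**
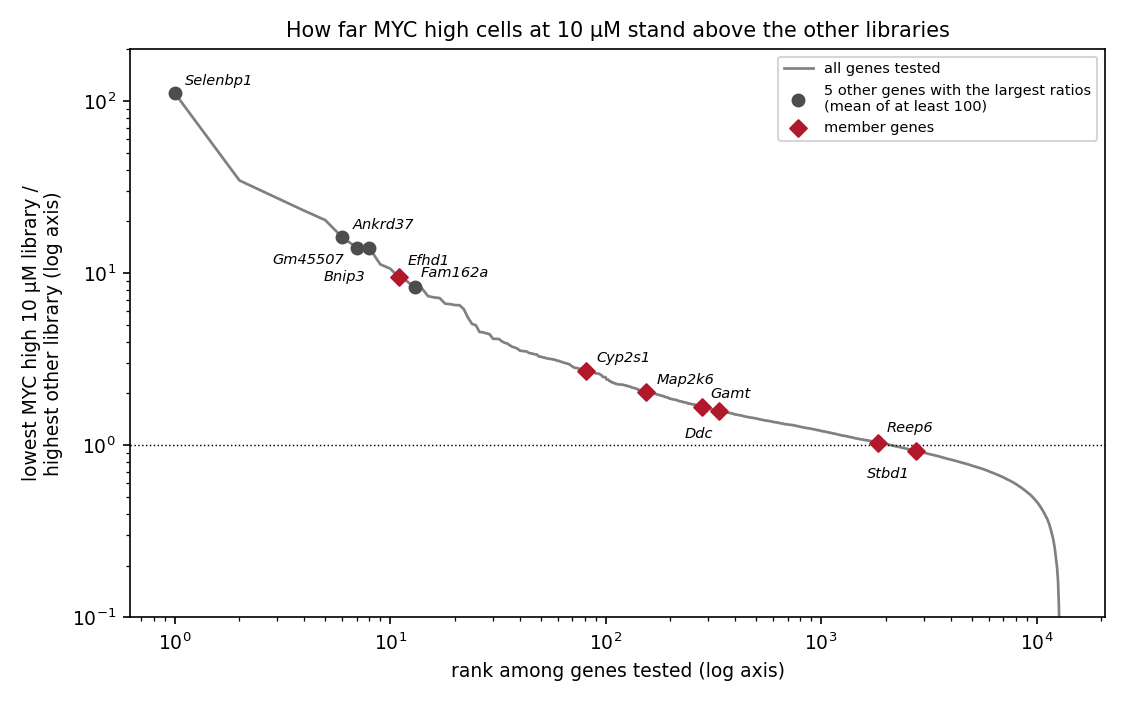
Ratio of the lowest MYC high library at 10 µM to the highest other library (vertical log axis) against its rank among genes tested (horizontal log axis), with the 7 genes as red diamonds and 5 other genes as dark points. Efhd1 sits near the top at 9.48, and Stbd1 lies under the dotted line at 1, at 0.928.

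Per kilobase of annotated transcript, a scale on which genes can be compared, Efhd1 was the most abundant of the 7 in MYC high cells given 10 µM. It stood at 359.9 normalized counts per kb, above 85.1% of 12857 genes tested, followed by Reep6 at 303 (81.8%), Cyp2s1 at 219 (74.6%), Gamt at 137 (62.9%), Stbd1 at 128 (61.3%), Map2k6 at 127 (61.1%) and Ddc at 78.1 (47.6%). In MYC high cells given 200 µM, Ddc stood at 2.17 per kb, Map2k6 at 2.57 and Cyp2s1 at 3.32, above 3.1%, 3.6% and 4.6% of genes. The level of these 3 genes in MYC low cells given 200 µM was 8.11, 28.4 and 30.2 per kb. Stbd1 was lowest in MYC low cells given 10 µM, at 5.19 per kb (4.2%).

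Among 9717 genes with a mean of at least 100, the log2 profile over the 11 libraries most like that of Cyp2s1 was that of Polr3k (Pearson r = 0.996), and for Map2k6 it was Hdac5 (0.998). Papss1 was most like Ddc (0.991), Rbfa most like Gamt (0.991) and the glycolytic gene Pfkl most like Efhd1 (0.997). Reep6 was closest to Rpl22l1 (0.994), a ribosomal protein gene, and Stbd1 to Rps12 and Rps26 (0.996 each), also ribosomal protein genes, some of which share reads with pseudogene copies. To the mean profile of the 7 genes, Rabl6 (0.997), Coro2b (0.996), St3gal1 (0.995), P4ha1 (0.993) and Hnrnpl (0.993) were closest. That mean blends both patterns described above, so genes close to it need not follow either pattern. These likenesses are descriptions over libraries that share groups.

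Neighbouring genes were read for shared signal. Gamt and Reep6 both lie on mouse chromosome 10 with 7 annotated genes between them, and the 5 protein-coding ones had log2 differences of -0.27 (Rps15) to 1.49 (Apc2) for 10 minus 200 µM in MYC high cells, against 4.47 for Gamt. Pcsk4, next to Reep6 on the opposite strand, averaged 74.1 ± 3.72 normalized counts in MYC high cells given 10 µM (SD, n = 3), 72.8 ± 5.37 in MYC high cells given 200 µM (SD, n = 2), 14.3 ± 1.59 in MYC low cells given 10 µM and 14.5 ± 2.15 in MYC low cells given 200 µM (SD, n = 3 each). It was thus higher in MYC high cells in both media (limma log2 2.30 and 2.26, adjusted p = 9.94e-12 and 2.17e-10), as Reep6 was. A lincRNA that overlaps Cyp2s1 on the opposite strand, Gm26707, averaged 19.3 in MYC high cells given 10 µM and 33.5 at 200 µM, unlike Cyp2s1. Abca5 beside Map2k6 averaged 255 in MYC high cells given 10 µM and 1047 at 200 µM, also unlike its neighbour.

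Genes of the hypoxia response were listed because several stood beside Efhd1 in the ranking by ratio. Of 30 tested identifiers, with Aldoa counted under both of its identifiers, 25 rose and 4 fell at 10 µM in MYC high cells. Of all genes, 37.9% rose there and 37.9% fell, and the list's median log2 difference was 1.48. The list was drawn up with results of these data known and is not independent evidence. The mitophagy receptor Bnip3 rose by 4.75 (SE 0.057), Ankrd37 by 5.12 (SE 0.23), the prolyl hydroxylase subunit P4ha2 by 4.10 (SE 0.29) and the oxygen sensor Egln3 by 3.91 (SE 0.048). Vegfa, Stc2, Ddit4 and Pfkfb3, named after their values were seen, fell by 1.54, 1.27, 0.25 and 0.25. The Pfkfb3 call was lost without replicate 1 of MYC high cells given 10 µM (log2 -0.20, limma adjusted p = 0.0891). Without replicate 3 of MYC high cells given 200 µM its difference was -0.16. Within MYC low cells 15 rose and 12 fell (median 0.21), where 29.4% of all genes rose and 29.9% fell. There Bnip3 differed by 0.53 (SE 0.051), Ankrd37 by 1.07 (SE 0.21) and Egln3 by 1.09 (SE 0.043).

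**Figure D4:**
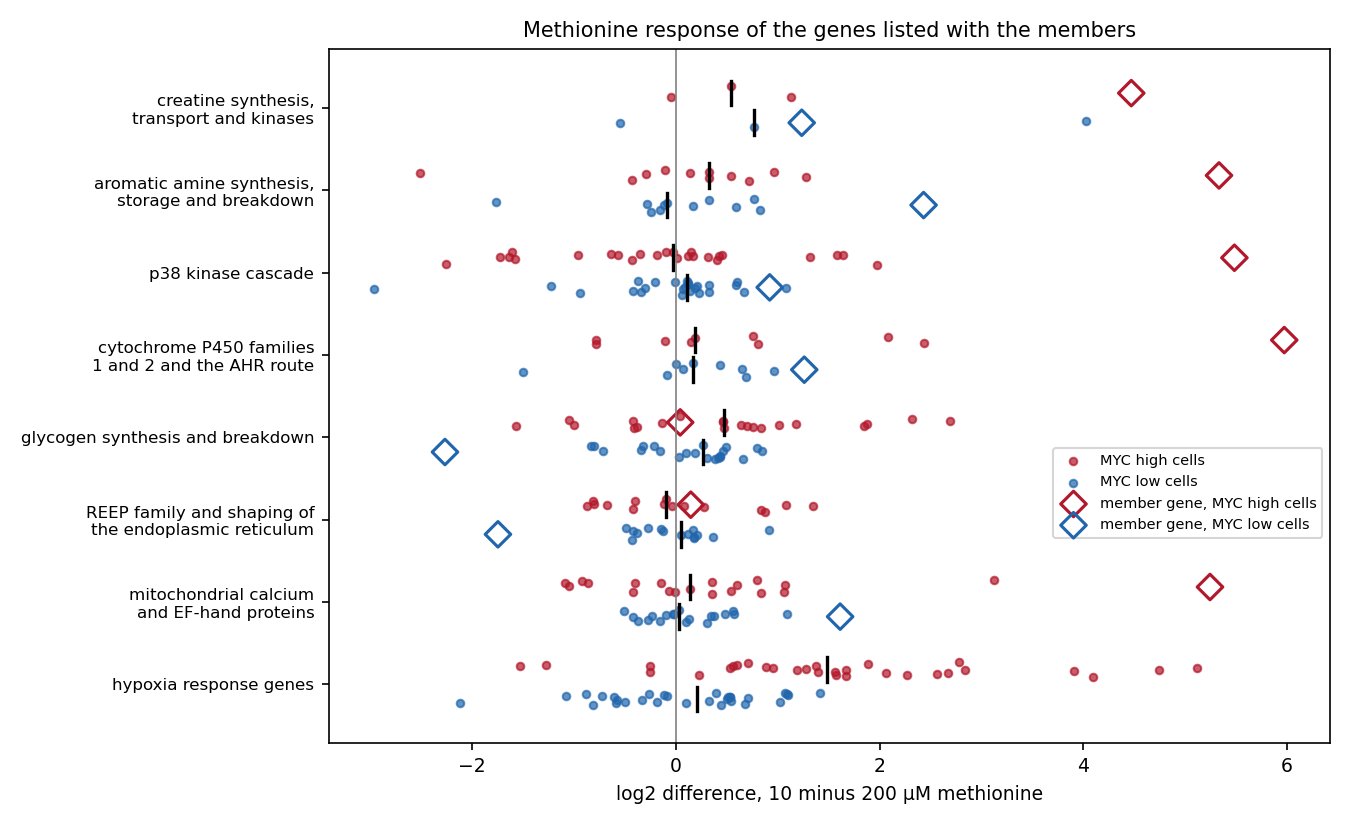
Log2 difference of 10 minus 200 µM methionine for each tested gene of 8 lists (small points, MYC high in red above MYC low in blue), the list's median without the 7 genes (black bars) and the gene of the set that belongs to the list (open diamonds). Gamt, Ddc, Map2k6, Cyp2s1 and Efhd1 lie to the right of every other gene of their lists in MYC high cells. The genes were chosen on MYC high libraries at 10 µM, so their place there is shaped by the choice and is described only. Reep6 and Stbd1 lie to the left of every other gene of their lists in MYC low cells.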

How the data were processed

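RNA-seq of 11 libraries in 4 groups was analysed from 1 table of normalized counts, a signal that the authors deposited. The submitters' processing notes name fastp, STAR, SAMtools, HTSeq, DESeq2 and build GRCm39; the strand setting was not given in the sources used here. The deposited signal values came out as whole reads in 100% of cases (tolerance 0.001), with size factors of 0.875 to 1.13. Symbols came from GENCODE M21 (52083 of 55416 identifiers), whose build differs, so gene coordinates are not printed. Columns of other samples numbered 0.

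The 12909 genes with a mean of at least 10 were fitted as log2(value + 1), a scale that understates the change of low genes, with limma 3.58.1 in R 4.3.3, with 4 group means, a variance trend (7 residual, 28.96 prior degrees of freedom), and p-values were adjusted by Benjamini-Hochberg over every gene tested, with a threshold of 0.05. SE is limma's moderated error; intervals are at 95%. The spread of MYC high libraries given 200 µM, of which there were 2, was assumed to be like that of the others. The fits were checked on counts simulated from the real means with known changes in MYC low cells given 10 µM. Simulated spread was set alike in all groups. Drops to a few reads in MYC high cells given 200 µM were not simulated, so the check does not cover them. Alternatives were edgeR 4.0.16 and DESeq2 1.42.0 on the whole reads, TMM scaling, a pseudocount of 8, a mean of at least 1, no trend, a replicate block and leaving out each library.

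The members, gene lists and motifs were chosen with earlier results of these data known. Named genes are the 7, up to 4 others per list with the largest change at 10 µM in MYC high cells, a fixed set of relatives of the 7, Myc, neighbours, and the genes with the closest profile or the largest ratio; some are not reported here.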

Additional observations from a re-analysis of the deposited data

Results flagged for a closer look

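The listed relatives and the neighbour Efhd1os below had a methionine response (10 minus 200 µM) that differed between MYC high and MYC low cells. The difference was at least 1 on the log2 scale and passed limma's interaction test, as 60.4% of all genes did. The 7 genes themselves were chosen on these libraries and are not included. Other named genes, Selenbp1 and Slc16a12 among them, were not screened for this list. Selenbp1 had 1270 to 1400 normalized counts at 10 µM and 3.18 to 4.57 at 200 µM in MYC high cells. In MYC low cells it had 9.70 to 11.4 at 10 µM and 1.94 to 8.19 at 200 µM.

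Among the genes screened, the largest positive differences, MYC high minus MYC low, belonged to the antisense transcript Efhd1os (4.55) and to hypoxia genes. These were Bnip3 (4.22), Ankrd37 (4.05), P4ha2 (3.60) and Egln3 (2.82). Glycogen genes followed with Gbe1 at 2.28, Pgm1 at 1.89 and Gys1 at 1.61, each rising in both states and more so in MYC high cells. Slc25a23 differed by 2.03 and Ephx1 by 1.78. Cyp2u1 differed by 2.07 at low levels, with 8.12 and 1.10 normalized counts in MYC high cells given 10 and 200 µM, and with a pseudocount of 8 its call was lost (0.78, adjusted p = 0.0516).

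Gch1 (1.65) fell in MYC low cells, to 34.1 ± 11.03 normalized counts with 10 µM, against 115 ± 3.10 with 200 µM (SD, n = 3 each), and did not pass in MYC high cells (limma adjusted p = 0.618). Slc18a1 (-3.34) and Ahr (-1.22) fell in MYC high and rose in MYC low cells. The rise of Slc18a1 was lost without replicate 1 or 2 of MYC low cells given 10 µM (limma adjusted p = 0.0523 and 0.0627). Rps6ka5 (-1.03) fell in both states, further in MYC high cells.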

How the results depend on the processing

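The counts of the 7 genes called kept within 1.5 times under each of 7 other settings and with each of the 11 libraries left out (28 and 44 values), as did the counts over all genes (35 and 55 values). Of the differences of single members, 227 of 245 values under other settings and 370 of 385 with a library left out were kept. For the tested comparisons, kept means the same direction and call, whatever the size. For the described comparisons it means a size within the spread between libraries, and direction was judged only at a log2 of at least 1. The values that were not kept had the same direction. Near 0 a sign could turn: Stbd1 in MYC high cells, at 0.04, reached -0.02 with a library left out. The lost calls were those of Efhd1 for MYC high minus MYC low at 200 µM: -0.28 with a pseudocount of 8, -0.37 with a mean of at least 1, -0.33 with a replicate block, -0.41 with edgeR, -0.39 with DESeq2, and -0.37 to -0.26 over the 6 left-out libraries that ended it. With a pseudocount of 8 the described differences of genes near the floor were smaller, for example 3.66 for Gamt in MYC high cells. Mouse Myc at 10 µM, with no call in any fit, differed by 0.00810 in edgeR, 0.00559 in DESeq2 and -0.0696 to 0.0936 over the left-out libraries, so its sign turned; the cause was not tested. Same-numbered libraries did not deviate together (correlations of -0.05 to 0.03). These are deviations from the means of few libraries, so whether the numbers pair libraries cannot be settled by them. Under the replicate block, 7653 genes passed for methionine in MYC low cells and 9495 for MYC state at 200 µM, against 7666 and 9600, and it changed no other call of the 7 genes. Depth limits the lowest levels: Ddc, Gamt and Map2k6 rested on 18, 15 and 16 reads in MYC high cells given 200 µM, and the replicate numbered 1 of that group was not analysed here.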
